A study of Mus musculus with 17 samples.

Results

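The translation factors on this array were 44 genes whose platform symbols begin with Eif or Eef and a number. They were 35 initiation factor genes and 9 genes of elongation factors and their methyltransferases, out of 9030 genes named by the platform. They were read by 67 of the 12771 probes with a gene symbol; 29 genes had 1 probe and 15 had several, up to 5 for Eif4g3. All 44 were tested in every comparison below. The rule used symbols alone and no measured value.

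Protein synthesis begins when eIF2, loaded with GTP and the initiator methionyl-tRNA, joins the small ribosomal subunit together with eIF1, eIF1A, eIF5 and the large scaffold eIF3. The cap-binding complex eIF4F (cap binder eIF4E, scaffold eIF4G and helicase eIF4A) then recruits the messenger RNA, while the 4E-BP proteins hold eIF4E back when mTORC1 signalling is low. In elongation eEF1A brings in each aminoacyl-tRNA, the eEF1B exchange subunits reload it with GTP, and eEF2 moves the ribosome along. The liver, which makes most plasma proteins, is a tissue of heavy protein synthesis, and the messages of several elongation factors belong to the TOP class, whose translation follows mTORC1.

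The study asked how liver expression differs when Afp, the gene of the fetal plasma protein alpha-fetoprotein, is knocked out. Each 2-colour cDNA array set the liver RNA of 1 Afp knockout (AFP1 kO) animal against pooled liver RNA of wild types. The 6 adults were males of 17 weeks, measured against a pool of 6 male wild types; 5 were measured in both dye orientations and animal 5 with the mutant in Cy5 alone, giving 11 arrays. The fetal arrays held 3 mutant embryos of each sex, 6 in all, always in Cy5, against a pool of 4 wild-type embryos. The labels give an embryonic day of 7.5 for this fetal liver, kept here only as a label. They call the fetal pool male on 2 arrays and female on 4, so whether all 6 fetal arrays shared 1 pool is not known. The strain background and the design of the knockout allele were not given in the sources used here. Values are log2 ratios of mutant over pool, as mean ± SD over animals (n = 6 unless said). A value of 0 is the pool's level, and negative values are lower in the mutant. Base 2 was inferred from the size of the values. Which way the Cy3 arrays of the mutants run is likely rather than stated: values beyond 10 in size were all positive with the mutant in Cy5 and all negative with it in Cy3, so these columns were read as already turned to mutant over pool. The pool was the single control and no wild type was measured alone, so the tests leave out the spread among wild types.

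Each array gave 20078 to 20697 values for 20794 probes, and the number of arrays limits the precision. Afp itself lay at -8.40 ± 0.23 in the embryos (limma adjusted p = 1.25e-08) and at -0.03 ± 0.19 in the adults, where it therefore does not check the labels. Fetal values are read 11 rows below the deposited row name. At that offset embryos 1 to 5 correlated best with the adult dye profile, the difference between dye orientations divided by 2 (Spearman correlation over probes 0.21 to 0.46, against -0.06 to 0.03 as deposited), while embryo 6 showed no clear dye profile at any offset (0.02 at 11 rows and at most 0.05, as deposited). The row naming of embryo 6, which enters every fetal mean, therefore rests on its correlation with the other embryos, highest when read in the same rows as theirs (0.23). Ratios carry no absolute level, so the tissue label could not be checked against marker levels.

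No translation factor passed Benjamini-Hochberg adjusted p under 0.05 in limma in any comparison. In the adults 0 of 44 passed, where 0 of 17039 features (0%) did. At an unadjusted p under 0.05, 0 of 44 were higher against 3.38% of all features, and 3 of 44 were lower against 4.37% (Eef1g, Eif3b and Eif4a1). In the embryos 0 of 44 passed the adjusted threshold against 0.151% of 17242 features. At an unadjusted p under 0.05, 7 of 44 were higher against 10.9% (Eef1akmt1, Eif1ax, Eif3e, Eif3i, Eif3k, Eif3m and Eif4a2), and 1 of 44 was lower against 9.88% (Eif5a). The members' shares of 6.82% lower in adults and 15.9% higher in embryos are near those backgrounds.

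The 44 genes nevertheless leaned to opposite sides of 0 at the 2 ages. The adult median was -0.05, with 26 genes below 0 and 18 above, beside a median of 0.01 over all features. Beside all features this depended on the dye orientation. With the mutant in Cy5 only, as in the embryos, the adult members lay at -0.045 beside -0.066 over all features. In Cy3 only they lay at -0.048 beside 0.079, and with the Cy3 columns turned in sign at -0.074 beside -0.092. The fetal median was 0.06, with 30 genes above 0 and 14 below, beside 0.00 over all features. By animal the member median was 0.02 in adult animals 1 and 2 and -0.09 to -0.22 in animals 3 to 6, and it was 0.03 to 0.15 in the 6 embryos. The SD of the member median over animals was 0.095 in adults and 0.045 in embryos. For single genes the 95% intervals reached a median of 0.29 either side of the mean in adults and 0.20 in embryos. The value lay below 0 in every adult for 1 of 44 genes (Eif3b; 2.89% of all features) and above 0 in every adult for 0 of 44 (3.44%). It lay above 0 in every embryo for 6 of 44 (Eef1a1, Eef1akmt4, Eif3e, Eif3i, Eif3k and Eif4a2; 8.27%) and below 0 in every embryo for 0 of 44 (7.5%). Of the marker lists, those of the exocrine pancreas stood apart in embryos, with 3 of 3 measured below 0 (median -1.30; Cela2a and Cpa1 called lower) and medians of -0.67 to -1.92 by embryo. The cholangiocyte markers lay below 0 in 4 of 5 cases there (median -0.36; Cftr, Epcam and Sox9 at an unadjusted p under 0.05, 0 called), the hepatocyte markers above 0 in 5 of 6 (median 0.18) and the erythroid markers below 0 in 4 of 4 (median -0.18). Their part in the fetal values was not tested. The plot of all members by animal shows the member values.

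**Figure D1:**
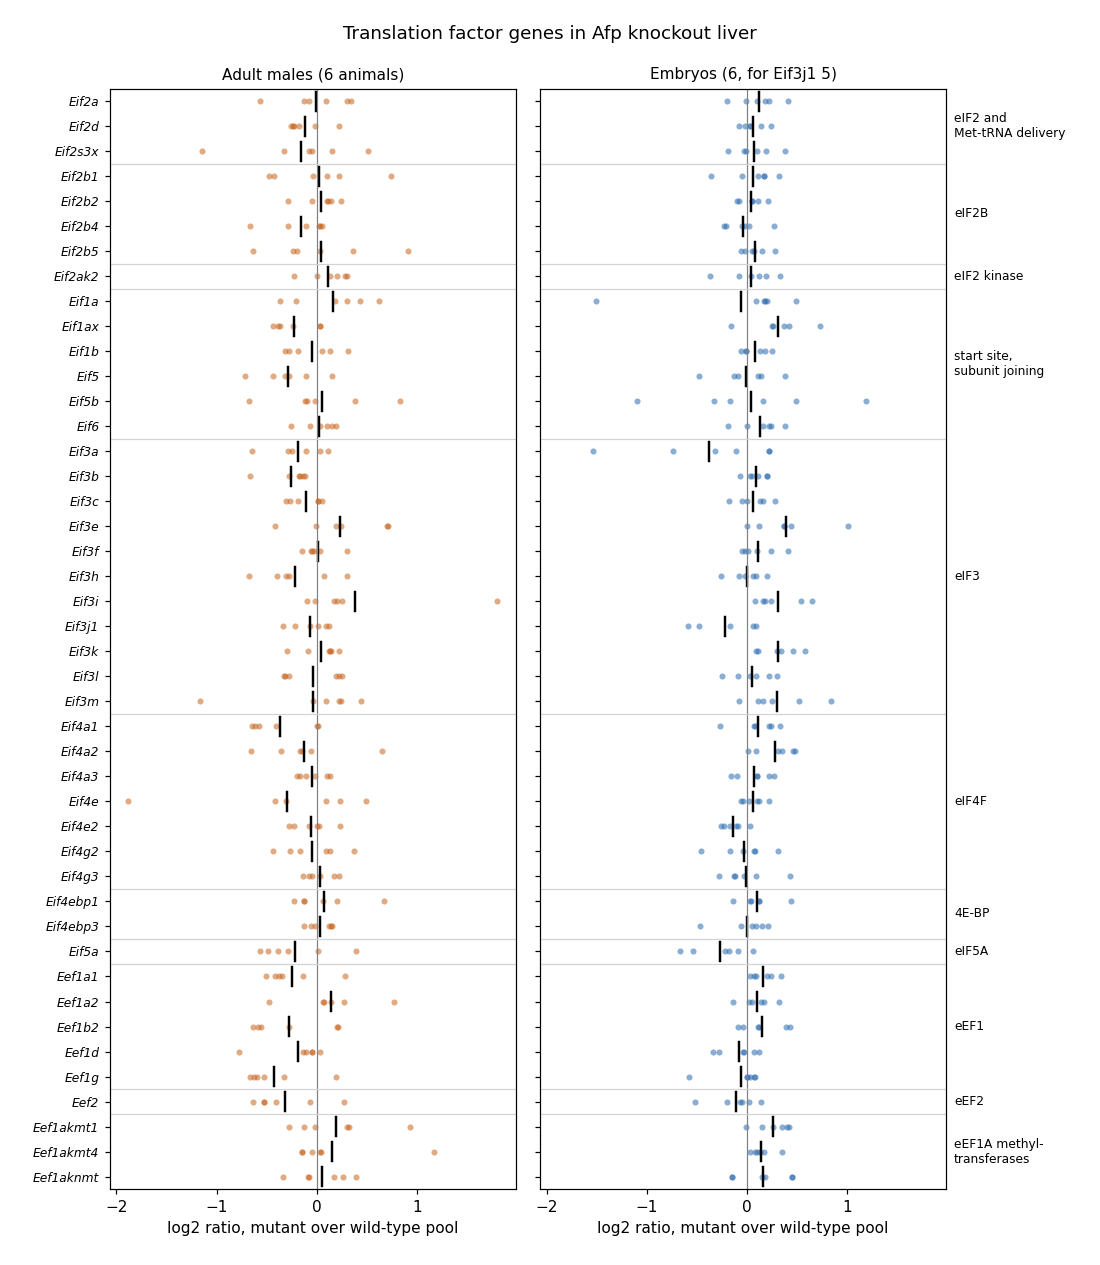
Each row is 1 gene, grouped by factor complex; points are the animals' log2 ratios of mutant over wild-type pool (adults at left, embryos at right) and black bars are the means. Most points lie within 1 log2 unit of 0, Eef1g and Eef2 lie left of 0 in 5 of 6 adults, and Eif3e, Eif3i, Eif3k and Eif4a2 lie right of 0 in all 6 embryos.

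The eIF2 group was represented by 3 genes, since Eif2s1 and Eif2s3y, which encode the alpha subunit and the Y-linked gamma subunit, were not analysed here. Eif2s3x encodes the X-linked gamma subunit that binds GTP and the initiator tRNA. Its adult values were 0.15, -0.08, -1.15, -0.33, 0.51 and -0.05 in animals 1 to 6 (mean -0.16 ± 0.56), and animal 3 stood lowest. In the embryos Eif2s3x averaged 0.07 ± 0.20. Eif2a, an alternative initiator tRNA factor that is no subunit of eIF2, averaged -0.01 ± 0.33 in adults and 0.12 ± 0.20 in embryos. Eif2d, which can also deliver tRNA to the small subunit, averaged -0.12 ± 0.18 and 0.06 ± 0.11. The eIF2 group thus held no gene whose mean stood away from 0 by more than its SD in either age.

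Of eIF2B, the exchange factor that reloads eIF2 with GTP, 4 subunit genes were measured, with means between -0.16 and 0.08. Eif2b5, the catalytic subunit, averaged 0.04 ± 0.54 in adults, where single animals ran from -0.63 to 0.91, and 0.08 ± 0.12 in embryos. Eif2b4, a regulatory subunit, averaged -0.16 ± 0.28 in adults and -0.04 ± 0.18 in embryos. Its adult value depended on the dye, at -0.50 with the mutant in Cy5 (6 arrays) and 0.36 with it in Cy3 (5 arrays). Eif2b1 and Eif2b2, further regulatory subunits, averaged 0.02 and 0.04 in adults and 0.06 and 0.04 in embryos. Among the kinases that phosphorylate eIF2 and so curb initiation, only the RNA-sensing Eif2ak2 (PKR) was on the list; Eif2ak1, Eif2ak3 and Eif2ak4 were not analysed here. Eif2ak2 averaged 0.11 ± 0.20 in adults and 0.04 ± 0.24 in embryos. Its adult value too depended on the dye, at -0.11 with the mutant in Cy5 and 0.45 with it in Cy3.

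The genes of start-site selection and subunit joining included 2 near-identical copies of eIF1A, the X-linked Eif1ax and the autosomal Eif1a, whose cDNA probes may not tell them apart. Eif1ax lay at 0.03, 0.03, -0.37, -0.39, -0.44 and -0.24 in the 6 adults (mean -0.23 ± 0.21) and at 0.72, 0.37, 0.42, 0.26, -0.16 and 0.25 in the 6 embryos (mean 0.31 ± 0.29). Embryo 5 alone lay among the adult values. Eif1a averaged 0.16 ± 0.38 in adults and -0.06 ± 0.72 in embryos, where embryo 1 stood at -1.51 and the other 5 between 0.09 and 0.49. Without embryo 1 its fetal mean was 0.23, so the sign rests on that embryo. Eif1b, a homologue of the start-site guardian eIF1, averaged -0.05 ± 0.25 and 0.08 ± 0.12.

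Eif5, the GTPase activator that releases eIF2 at the start codon, averaged -0.28 ± 0.29 in adults and -0.01 ± 0.29 in embryos. Its values were below 0 in 5 of 6 adults, and animal 2 alone was above, at 0.15, but with the Cy3 columns turned in sign the mean was 0.18. It averaged -0.05 with the mutant in Cy5 and -0.56 with it in Cy3. Of its 2 probes, 1 read 0.908 with Cy5 and -3.606 with Cy3 in animal 6, and 1.133 and -1.74 in animal 3. In embryos its 2 probes disagreed, at -0.31 ± 0.71 and 0.28 ± 0.28. Eif5b, the GTPase that joins the subunits, scattered most in this group, from -0.68 to 0.82 in adults and from -1.10 to 1.18 in embryos, around means of 0.05 and 0.04. Eif6, which keeps the large subunit from joining too early, averaged 0.02 ± 0.17 and 0.13 ± 0.20.

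The eIF3 scaffold gave 11 genes, 7 below and 4 above 0 in adults and 8 above and 3 below 0 in embryos. Of these, 1 was lower in adults (4.37% of all features) and 4 were higher in embryos (10.9%) at an unadjusted p under 0.05, with 0 called after adjustment. Eif3e, a PCI-domain subunit, had the highest fetal mean of all members, with 0.37, 0.36, 1.01, 0.44, 0.00 and 0.12 in embryos 1 to 6 (0.38 ± 0.35; 130% of the pool; limma adjusted p = 0.156). Its adult mean was 0.23 ± 0.43, with animals between -0.42 and 0.71.

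Eif3k, the smallest subunit, lay at 0.30, 0.33, 0.09, 0.11, 0.46 and 0.58 in the embryos (0.31 ± 0.19; limma adjusted p = 0.118, the smallest of any member there). Its 2 probes did not share this: one averaged 0.60 ± 0.33 and the other 0.02 ± 0.13. In adults Eif3k averaged 0.04 ± 0.19. Eif3m averaged 0.30 ± 0.33 in embryos, from -0.08 to 0.84. In adults it averaged -0.04 ± 0.58, where animal 5 stood at -1.17 and the others between -0.04 and 0.44.

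Eif3i, a WD-repeat subunit that binds Eif3b, had the highest adult mean of all members, 0.38 ± 0.71 (130% of the pool; limma adjusted p = 0.683), but this mean rested on 1 animal. Animals 1 to 6 lay at -0.02, 0.25, -0.10, 0.17, 1.80 and 0.20, and animal 5, at 1.80, was measured with the mutant in Cy5 alone. On the 6 arrays with the mutant in Cy5 Eif3i averaged 1.03, and on the 5 with it in Cy3 -0.68. In the embryos Eif3i lay at 0.54, 0.16, 0.08, 0.24, 0.64 and 0.18 (0.31 ± 0.23).

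Eif3b, a core scaffold subunit, was the single member below 0 in all 6 adults, at -0.18, -0.28, -0.14, -0.12, -0.16 and -0.67 (-0.26 ± 0.21; limma adjusted p = 0.639). It too differed by dye, at 0.13 with the mutant in Cy5 and -0.75 with it in Cy3. With the Cy3 columns turned in sign its adult mean was 0.36 in place of -0.26. Eif3b averaged 0.08 ± 0.10 in embryos. Eif3a, the largest subunit, averaged -0.19 ± 0.27 in adults and -0.38 ± 0.67 in embryos, the lowest fetal mean of any member. That mean followed embryo 1, at -1.54, and embryo 5, at -0.74, beside -0.32 to 0.22 in the others. The 2 probes of Eif3a did not share the value of embryo 1, at -2.844 and -0.235. In embryo 5 they lay at -0.817 and -0.659.

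Eif3j1, a loosely bound subunit, had 5 fetal values between -0.59 and 0.09 (mean -0.22 ± 0.31, n = 5) and averaged -0.07 ± 0.18 in adults. Eif3h averaged -0.22 ± 0.35 in adults and 0.00 ± 0.16 in embryos. The remaining subunits Eif3c, Eif3f and Eif3l averaged between -0.11 and 0.01 in adults and between 0.05 and 0.11 in embryos.

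In the eIF4F group 6 of 7 genes lay below 0 in adults and 4 of 7 above 0 in embryos. Eif4a1, the main helicase subunit, lay at 0.00, 0.01, -0.40, -0.64, -0.57 and -0.62 in adult animals 1 to 6. The mean was -0.37 ± 0.30, or 77.3% of the pool (limma adjusted p = 0.639). Animals 1 and 2 averaged near the pool's level and the other 4 all at -0.40 or lower. The arrays of an animal could differ, at 0.42 with Cy5 and -0.41 with Cy3 in animal 1, and -1.03 and -0.21 in animal 6. In embryos Eif4a1 averaged 0.11 ± 0.21, above 0 in 5 of 6.

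Eif4a2, its close paralogue, lay at 0.65, -0.36, -0.17, -0.06, -0.65 and -0.15 in adults (-0.12 ± 0.43). In embryos it lay at 0.08, 0.31, 0.46, 0.35, 0.48 and 0.01 (0.28 ± 0.19; limma adjusted p = 0.135). Eif4a3, the homologous helicase of the exon junction complex, averaged -0.05 ± 0.14 and 0.07 ± 0.17. The helicase genes were thus below 0 on average in adults and above 0 in embryos, none of them past the test.

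Eif4e, the cap binder, averaged -0.30 ± 0.84 in adults, but animal 6 alone, at -1.88, set this value. It came from 1 of 4 probes, which read -16.46 on the array of animal 6 with the mutant in Cy3, and without values beyond 10 in size the adult mean was 0.03. In embryos Eif4e averaged 0.06 ± 0.11. Eif4e2, a cap-binding homologue that represses translation, lay below 0 in 5 of 6 embryos, between -0.26 and 0.03 (-0.14 ± 0.10), and averaged -0.06 ± 0.19 in adults. Eif4g1, the main scaffold, was not analysed here. Its relatives Eif4g2 (DAP5), which lacks the cap-binder site, and Eif4g3 averaged -0.05 ± 0.30 and 0.03 ± 0.14 in adults and -0.04 ± 0.26 and -0.01 ± 0.25 in embryos.

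Of the eIF4E inhibitors, Eif4ebp1 (4E-BP1) averaged 0.07 ± 0.33 in adults and 0.10 ± 0.19 in embryos, and Eif4ebp3 averaged 0.03 ± 0.12 and -0.01 ± 0.25; Eif4ebp2 was not analysed here. Animal 5, at 0.67, was the highest adult for Eif4ebp1. Eif5a, the hypusine-bearing factor that helps the ribosome past difficult stretches, averaged -0.22 ± 0.36 in adults. In embryos it lay at -0.67, -0.18, -0.22, -0.54, -0.09 and 0.06 (-0.27 ± 0.28; 82.7% of the pool; limma adjusted p = 0.205). Both its probes averaged below 0 in embryos, at -0.37 and -0.17.

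The eEF1 genes lay below 0 in adults in 4 of 5 cases, with a median of -0.25, and Eef2 lay at -0.32. For Eef1g, the eEF1B gamma subunit, the adults lay at 0.19, -0.33, -0.52, -0.67, -0.63 and -0.60, a mean of -0.43 ± 0.32 or 74.4% of the pool (limma adjusted p = 0.639; 95% interval -0.74 to -0.12). Eef1g had the lowest adult mean of the members. With the Cy3 columns turned in sign, however, it lay at -0.26 and Eif2b4 at -0.46 was lowest. Eef1g was read by 1 probe, and the Cy5 and Cy3 values of an animal could differ. They were -0.935 and 0.281 in animal 2, -1.383 and 0.040 in animal 4, and -0.002 and -1.203 in animal 6. In animals 1 and 3 they shared a sign, at 0.268 and 0.104, and -0.805 and -0.242. Eef1g lay below 0 on 5 of 6 Cy5 arrays but above 0 on 3 of 5 Cy3 arrays. In embryos it averaged -0.07 ± 0.25, with embryo 1 at -0.57 and the other 5 between 0.00 and 0.08.

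Eef2, the translocase, lay at 0.27, -0.07, -0.53, -0.64, -0.53 and -0.40 in adults (-0.32 ± 0.35; 80.3% of the pool; limma adjusted p = 0.642). It was read by 4 probes, and their adult means were all below 0, from -0.20 to -0.41. In embryos Eef2 averaged -0.11 ± 0.23, with embryo 1 lowest at -0.52. Its kinase gene Eef2k was not analysed here.

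Eef1a1, the main tRNA carrier, lay at 0.28, -0.14, -0.38, -0.35, -0.51 and -0.42 in adults (-0.25 ± 0.29; limma adjusted p = 0.652) and at 0.24, 0.33, 0.02, 0.20, 0.07 and 0.09 in embryos (0.16 ± 0.12). Its 2 probes did not share these values. One averaged -0.45 ± 0.52 in adults and 0.30 ± 0.14 in embryos, and the other lay near 0, at -0.05 ± 0.22 and 0.01 ± 0.19. The gene's low adult and high fetal values thus rest largely on the first probe. Eef1a2, the paralogue known from muscle and neurons, did not share the adult values, at -0.48, 0.06, 0.14, 0.27, 0.76 and 0.07 (0.14 ± 0.40). It differed by dye, at 0.37 with the mutant in Cy5 and -0.26 with it in Cy3. Without animal 5, measured in Cy5 alone, its adult mean was 0.01. In embryos Eef1a2 averaged 0.09 ± 0.16.

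Eef1b2, the eEF1B exchange subunit, lay at 0.20, 0.21, -0.55, -0.59, -0.64 and -0.28 in adults (-0.27 ± 0.39) and averaged 0.15 ± 0.21 in embryos. Eef1d, the other exchange subunit, lay between -0.14 and 0.03 in 5 adults and at -0.77 in animal 5 (-0.18 ± 0.30), and averaged -0.08 ± 0.19 in embryos. For Eef1a1, Eef1b2, Eef1g and Eef2, chosen after their values were seen, animal 1 lay above 0 and animals 3 to 6 at -0.28 or lower, while animal 2 lay between -0.33 and 0.21; Eef1a2 and Eef1d did not share these values. With the Cy3 columns turned in sign the adult means were nearer 0, at -0.10 for Eef1a1, -0.09 for Eef1b2, -0.26 for Eef1g, -0.19 for Eef2 and -0.13 for Eif4a1.

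Other lists varied by animal too. The hepatocyte markers (8 of 8 measured below 0 in adults, among them Alb at -0.59 and Ttr at -0.44) had medians of 0.19, -0.08, -0.83, -0.86, -0.16 and -0.81 in animals 1 to 6. The 61 cytosolic ribosomal protein genes had medians of 0.14, -0.02, -0.36, -0.47, -0.18 and -0.21, with 52 of 61 below 0 on average. The endothelial markers (4 of 4 below 0) had medians of -0.17, -0.21, -0.83, -0.61, -0.04 and -0.49. The other lists had adult medians of 0.09 over 5 cholangiocyte, 0.25 over 3 macrophage and -0.16 over 4 erythroid markers. The part of these lists in the elongation factor values was not tested. In this bulk tissue, fewer cells of a type and less RNA per cell cannot be told apart.

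**Figure D2:**
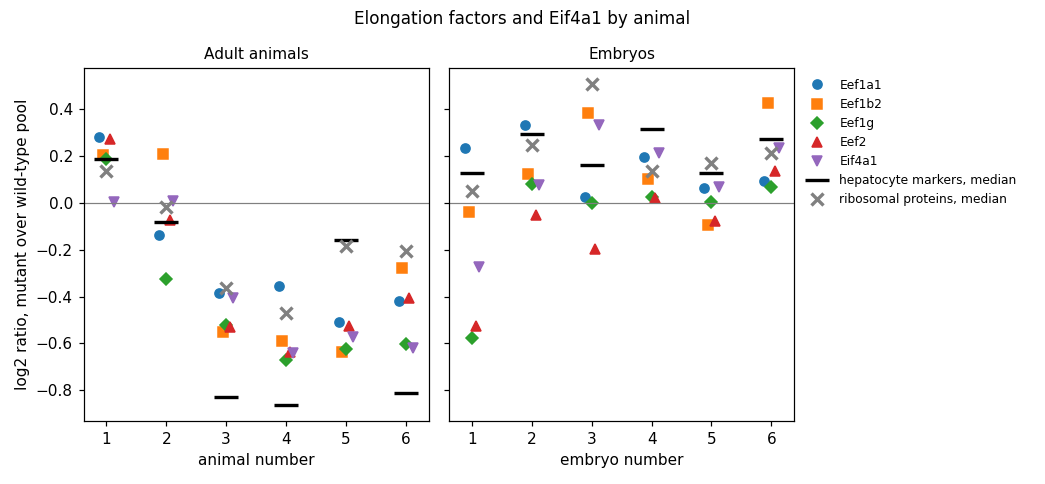
The log2 ratio of mutant over wild-type pool for Eef1a1, Eef1b2, Eef1g, Eef2 and Eif4a1 in each adult animal (left) and embryo (right), with the medians of the hepatocyte markers (black bars) and ribosomal protein genes (grey crosses). In animals 3 to 6 all 5 genes lie at -0.28 or lower, while in the embryos Eef1a1 lies at 0.02 or higher throughout.

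The windows at the annotated starts of these genes are shown because TOP messages are defined by their first bases, a C followed by a run of pyrimidines. They were read from RefSeq on GRCm38.p6, which held 33 of the 44 genes, and each runs from 40 bases before the start to 10 bases from it, with the first 5 transcribed bases in capitals. Eef1a1 (chr9:78481715-78481764, minus strand), Eef1b2 (chr1:63176791-63176840, plus), Eef2 (chr10:81176591-81176640, plus) and Eif4a1 (chr11:69672414-69672463, minus) are 4 of the genes with low adult means; Eef1g, Eif4e and Eif5 are not shown. Eif3f (chr7:108934375-108934424, plus) and Eif2s3x (chrX:94212642-94212691, minus) are the members with the pyrimidine start.
Eef1a1: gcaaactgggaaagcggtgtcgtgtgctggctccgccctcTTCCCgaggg
Eef1b2: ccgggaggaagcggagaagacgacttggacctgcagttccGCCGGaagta
Eef2: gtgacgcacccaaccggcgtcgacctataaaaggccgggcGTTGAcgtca
Eif4a1: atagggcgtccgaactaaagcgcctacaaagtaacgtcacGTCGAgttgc
Eif3f: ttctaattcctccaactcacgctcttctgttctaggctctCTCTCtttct
Eif2s3x: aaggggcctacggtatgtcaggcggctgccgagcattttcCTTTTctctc

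A C followed by 4 pyrimidines stood exactly at the annotated start, on the gene's strand, in 2 of 33 members (6.06%) and in 2.51% of 32851 promoters. Searched anywhere in the 50-base window on either strand, it was found in 25 of 33 members and in 85.5% of promoters, so its presence in the window distinguishes little. An annotated start can lie some bases from the start used in liver, and these letters say nothing on whether a message is a TOP message. Eif3f averaged 0.01 ± 0.15 in adults, and Eif2s3x -0.16 ± 0.56. The ATF4 and C/EBP element, TGATGNAA on either strand of the 300-base promoters, was found in 1 of 33 members, against 3.97% of all promoters. That member was Eif2s3x, at chrX:94212724-94212763 (minus strand), with the element in capitals and lying on the other strand.
Eif2s3x upstream: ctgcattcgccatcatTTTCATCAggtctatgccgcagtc

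The methyltransferases of eEF1A were 3 genes, all with means above 0 in both ages. Eef1akmt1, which methylates a lysine of eEF1A, lay at -0.28, -0.02, -0.13, 0.30, 0.93 and 0.32 in adults (0.19 ± 0.43) and at 0.42, 0.26, 0.40, 0.15, 0.34 and -0.01 in embryos (0.26 ± 0.17; limma adjusted p = 0.133). Eef1akmt4, another lysine methyltransferase, lay between -0.15 and 0.04 in 5 adults and at 1.165 in animal 5 (0.15 ± 0.51), and averaged 0.14 ± 0.11 in embryos. Eef1aknmt, which methylates the N terminus and a lysine of eEF1A, averaged 0.05 ± 0.27 and 0.15 ± 0.27. Animal 5 was the highest adult for both lysine methyltransferases, as for Eif3i.

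These high values went with the dye. The adult dye profile was 0.78 ± 0.27 for Eif3i, 0.73 ± 0.17 for Eef1akmt1 and 0.64 ± 0.35 for Eef1akmt4 (n = 5 animals), against a median of -0.03 over the 44 genes. Eef1akmt1 averaged 0.79 on arrays with the mutant in Cy5 and -0.69 with it in Cy3, and Eef1akmt4 0.68 and -0.69. Read on the Cy5 arrays alone, Eef1akmt1 and Eif3i were called higher in adults in limma (2 of 44, against 6.55% of features), and read on the Cy3 arrays alone Eif3i was called lower, at -0.68 (1 of 44, against 4.19%). If the Cy3 columns were instead turned in sign, 4 members were called in adults (Eef1akmt1, Eef1akmt4, Eif2s3x and Eif3i, against 10.4% of features), with Eif2s3x at 0.42 in place of -0.16.

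The fetal arrays carried the mutant in Cy5 alone, so dye and knockout cannot be told apart there. Embryo 6, without a clear dye profile, lay lowest for Eef1akmt1, at -0.01, and Eef1akmt4, at 0.03. For Eif3i it lay at 0.18, above embryos 2 and 3 at 0.16 and 0.08. The part of the dye in these values was not tested. The dye values of the other high fetal members were 0.00 for Eif3e, -0.06 for Eif3k, -0.13 for Eif1ax, 0.07 for Eif4a2 and 0.15 for Eif3m. With the adult dye profile subtracted as if it were known without error, 13 of 44 members were called in the embryos, against 30% of 16440 features. Eef1aknmt, Eif1ax, Eif2ak2, Eif2b4, Eif3f and Eif3k were then above 0, and Eef1akmt1, Eef1akmt4, Eif2s3x, Eif3b, Eif3i, Eif4e and Eif6 below it. The dye profile of Eif4e, 0.70 ± 1.16, was largely set by animal 6, at 0.86 with Cy5 and -4.62 with Cy3. The latter holds the reading of -16.46 from 1 probe. The size of the subtracted Eif4e value thus depends on that reading, and its call was not tested without it. The members' share was thus close to that of all features.

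**Figure D3:**
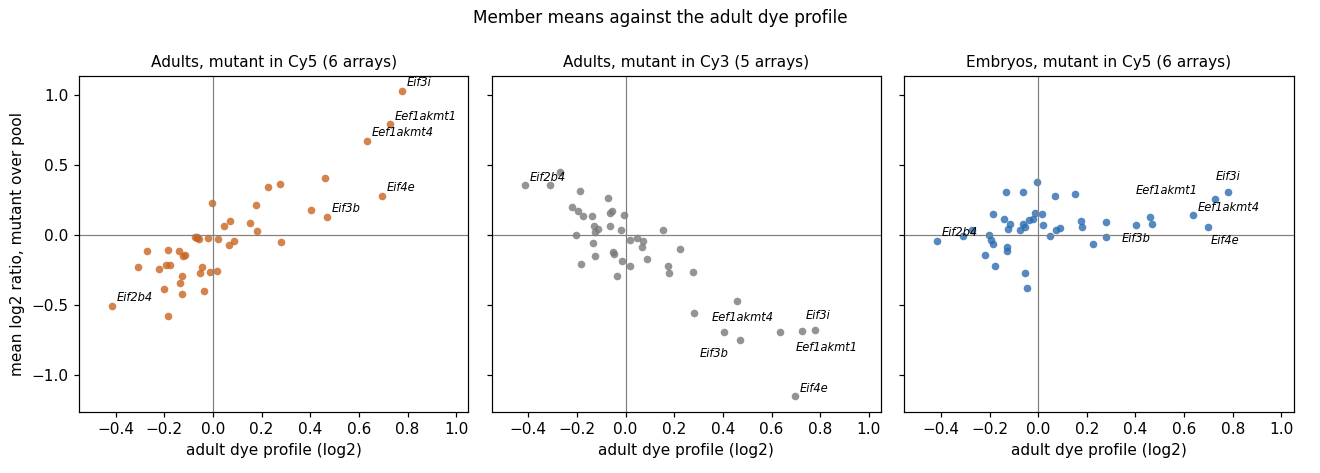
Each point is 1 of the 44 genes; the horizontal axis is the adult dye profile (log2, the difference between dye orientations divided by 2, over 5 animals) and the vertical axis the mean log2 ratio of mutant over pool in adults with the mutant in Cy5, adults with it in Cy3, and embryos. The adult panels use the same arrays as the profile, so their slopes are built in. Eif3i and Eef1akmt1 lie at the right edge, at 1.03 and 0.79 with Cy5, about -0.68 and -0.69 with Cy3, and 0.31 and 0.26 in embryos.

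The ages were compared on arrays of the same dye orientation, with 6 adults against 6 embryos. No member passed (0 of 44, against 0.141% of 16314 features; smallest limma adjusted p = 0.104). At an unadjusted p under 0.05, 3 of 44 were higher in adults against 11% of all features (Eef1akmt1, Eef1akmt4 and Eif3i), and 5 of 44 were lower against 9.24% (Eef1a1, Eif1ax, Eif2b4, Eif3k and Eif4a1). The values of the 2 ages lay apart, without overlap, for 0 of 44 members in either direction, beside 1.14% of features higher and 1.15% lower in adults. The members' median difference was -0.10, with 29 below and 15 above 0, beside -0.02 over all features.

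Eif3i differed most, by 0.73 (95% interval 0.25 to 1.20; limma adjusted p = 0.109). Eef1akmt4 followed at 0.53 (limma adjusted p = 0.135) and Eef1akmt1 at 0.53 (limma adjusted p = 0.104). These were 3 of the 4 members with the highest dye profile. At the other end Eif1ax differed by -0.65 (95% interval -1.12 to -0.18; limma adjusted p = 0.132), Eif4a1 by -0.51 (0.21) and Eef1g by -0.51 (0.282). Eif2b4 differed by -0.46 (0.133), Eef1a1 by -0.42 (0.223) and Eif3k by -0.33 (0.205), where bracketed values are limma adjusted p. Eef1a2 differed by 0.28 and Eif4a2 by -0.35, each with a 95% interval that includes 0.

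The count turned on 1 animal. Without adult animal 1, 7 members were called (Eef1a1, Eif1ax, Eif2b4 and Eif4a1 lower, and Eef1akmt1, Eef1akmt4 and Eif3i higher), against 7.59% of features; leaving out any other animal or embryo called 0 members. Animal 1 was also the highest adult for Eef1a1, Eef1g and Eef2. The hepatocyte markers differed between the ages as well, with 6 of 6 lower in adults and a median difference of -0.54, and so did the ribosomal proteins, with 51 of 61 lower and a median of -0.28. Their part in the members' differences was not tested. With fetal rows named as deposited, 2 members were called between the ages (Eef1akmt1 and Eif3i), against 9.38% of features.

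**Figure D4:**
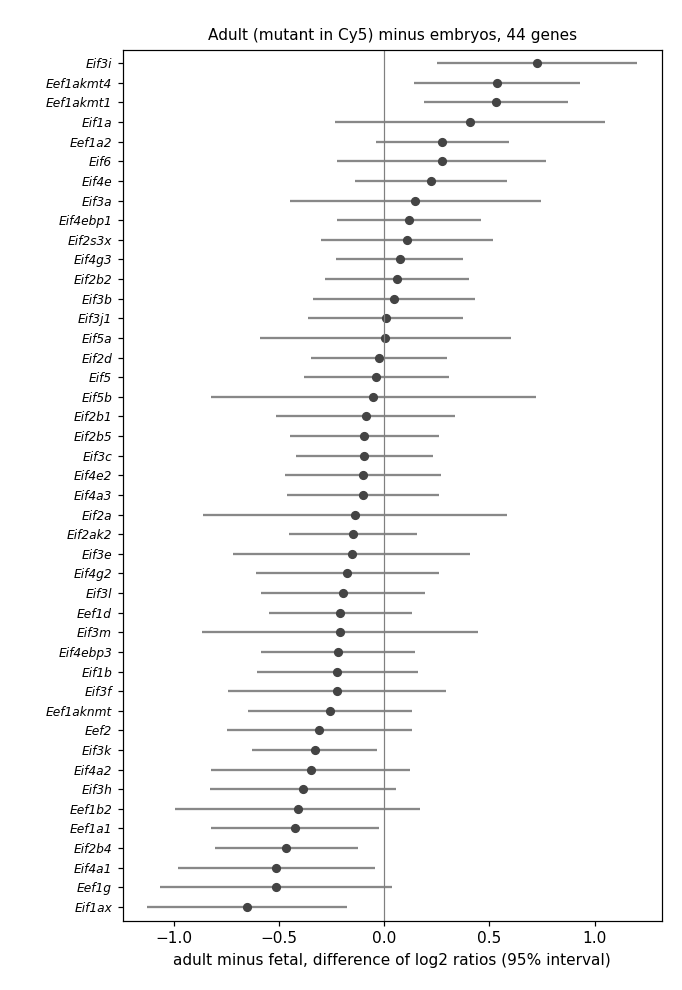
The difference of mean log2 ratios, adults (mutant in Cy5) minus embryos, for each of the 44 genes with its 95% interval from the limma fit, 6 arrays per group. Eif3i (0.73) and both lysine methyltransferases stand at the top and Eif1ax (-0.65), Eef1g and Eif4a1 at the bottom; most intervals include 0.

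Female and male embryos, both present in the study, were compared as well, and eIF1A and eIF2 gamma have X-linked genes. The labels call the pool female for all 3 female embryos and for male embryo 3, and male for male embryos 1 and 2. Embryo sex thus largely went with the pool label, and their effects cannot be told apart. Were the pools matched in sex, a difference between the sexes would largely cancel in these ratios. No member passed (0 of 44, against 0.0116% of 17212 features), and at an unadjusted p under 0.05 0 of 44 were higher (1.54% of features) and 0 of 44 lower (1.64%). The X-linked Eif1ax had a female minus male difference of -0.39 (95% interval -0.82 to 0.05; limma adjusted p = 0.998). The X-linked Eif2s3x differed by -0.04 (95% interval -0.48 to 0.40). Eif3m differed by -0.41 (95% interval -0.91 to 0.09), Eef2 by 0.29 (-0.12 to 0.69) and Eif5 by 0.26 (-0.25 to 0.78). With 3 embryos of each sex the intervals reached a median of 0.44 either side of the difference. In simulated data this fit recovered 0% of changes of 1 log2 unit, so the absence of calls says little.

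The other genes of the pathway were read from lists of their own. Among 19 measured further cytosolic factors, 10 lay below and 9 above 0 in adults and 11 above and 8 below 0 in embryos. One passed in embryos: Ddx3x, an RNA helicase of initiation on structured messages, was higher at 0.71 ± 0.22 (limma adjusted p = 0.0467), beside a dye profile of 0.75. One passed between the ages: Bzw2, which competes with eIF5, was higher in adults by 0.92 (limma adjusted p = 0.0226), beside a dye profile of 0.85. The poly(A)-binding protein gene Pabpc1 averaged -0.12 in adults and -0.26 in embryos.

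Among 17 genes of cytosolic aminoacyl-tRNA synthetases and their associated proteins (Aimp1 and Aimp2), 12 lay above 0 in adults and 7 in embryos, with none called. Of 15 adult and 13 fetal genes of mTORC1 and MNK signalling, 7 and 6 lay above 0, again with none called. Of 7 mitochondrial translation factors 3 and 4 lay above 0, with none called.

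The genes driven by ATF4, the transcription factor translated when eIF2 is phosphorylated, lay below 0 in adults for 16 of 20 measured (median -0.11) and above 0 in embryos for 12 of 19 (median 0.05), with none called. Asns, asparagine synthetase, had an adult mean of -0.95 ± 0.47 (limma adjusted p = 0.639) and a fetal mean of 0.00 ± 0.22, and Atf4 itself -0.22 ± 0.16 and 0.02 ± 0.40. In embryos 48 of 61 ribosomal protein genes lay above 0 (median 0.19), 25 of them at an unadjusted p under 0.05 (10.9% of all features) and none after adjustment.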

How the data were processed

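The values are the log2 ratios of the 2 channels as deposited by the authors in 1 table. The sources used here do not give image analysis, background correction or normalization, and base 2 was inferred from the range of values. Per the labels' protocols, RNA was labelled indirectly with Cy3 or Cy5. Probes took their names from the platform annotation, and the probes of a gene were averaged, after the arrays of each animal. The fetal rows of probes 1 to 20000, which include every member, were shifted by 11. limma 3.58.1 (R 4.3.3; lmFit and eBayes) was fitted to all features with at least 4 values per group (between sexes, 2 of each and 4 in all), against 0 for each age and as 2-group fits between ages and sexes, two-sided, with Benjamini-Hochberg adjustment over all features and a threshold of 0.05. Each fit was tested on simulated data with known changes. Changes of 1 log2 unit were recovered for 57% of changed features in adults and 83.8% in embryos. Between the ages 39.5% were recovered, and between the sexes 0%. The largest member values were smaller, at 0.43, 0.38, 0.73 and 0.44 in size in these 4 comparisons. Counts of 0 called members therefore say little on changes of that size. Same array numbers at both ages do not pair animals: their deviations correlated at -0.00 to 0.01. The text names all members by complex, gives values by animal for the 3 smallest p in each direction per comparison and for paralogues, and some further ones chosen after their values were seen. Members, lists and tests were chosen with earlier results of these data known. Alternatives were centring, probe summary, missing values, extreme values, dye orientation, row naming and each animal left out.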

Additional observations from a re-analysis of the deposited data

Results flagged for a closer look

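The sets of values were 44 members and the member median at each age, 90 in all, of 6 animals each (5 for Eif3j1 in embryos). For values of equal spread, chance puts about 1 in 20 sets beyond Dixon's 95% critical value. In 7 of the 90 sets, 1 animal lay beyond it, far from the others. Adult animal 5, measured with the mutant in Cy5 alone, accounts for 4: Eif3i at 1.799 (others -0.10 to 0.25), Eef1akmt4 at 1.165 (others -0.15 to 0.04), Eif3m at -1.167 (others -0.04 to 0.44) and Eef1d at -0.7747 (others -0.14 to 0.03). The dye profile of the first pair is 0.78 and 0.64, and that of Eif3m and Eef1d 0.15 and -0.13. Its part in these values was not tested. Animal 5 had 1 array where the other adults had 2, so that chance rate may not hold for the adult sets. Over all features animal 5 was the highest adult for 24.9% and the lowest for 30.1%. Adult animal 6 was low for Eif3b, at -0.668, beside -0.28 to -0.12. Embryo 1 was low for Eif1a, at -1.512, beside 0.09 to 0.49, and for Eef1g, at -0.575, beside -0.00 to 0.08.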

How the results depend on the processing

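The adult count of 0 called members became 4 with the Cy3 columns turned in sign, 2 with the mutant in Cy5 only and 1 with the mutant in Cy3 only; Eif2s3x was then called at 0.42 with the columns turned, and Eif3i at -0.68 on Cy3 arrays alone, each against its main sign. The fetal count of 0 became 13 with the adult dye profile subtracted, with called values against the main sign for Eef1akmt1 (-0.47), Eef1akmt4 (-0.49), Eif2b4 (0.37), Eif2s3x (-0.33), Eif3b (-0.39), Eif3i (-0.47), Eif4e (-0.64) and Eif6 (-0.33). The Eif4e value rests on a dye profile largely set by the reading of -16.46 in adult animal 6. With the fetal rows named as deposited the fetal member median was -0.0035 in place of 0.06, and between the ages 2 members were called (Eef1akmt1 and Eif3i, against 9.38% of features). Leaving out 1 animal gave 0 to 7 called members between the ages, the 7 without adult animal 1, and 0 in the other comparisons. The replicate block on array numbers, which do not pair animals, gave 0 called members and a median of -0.02 in place of -0.10. Over all features the main counts of 0 (adult), 26 (fetal), 23 (between ages) and 2 (between sexes) ran to 1764, from 2 to 4930, from 4 to 1579 and from 0 to 4 over the alternatives. The cause was not tested. Precision is set by 6 animals per age, 3 per sex, and the pools. The adults had 1 pool, while the labels do not settle whether the embryos shared 1. The ages differ in pool as well as in tissue, which cannot be told apart.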

Other observations

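The member values were shared unevenly between animals. Embryo 1 held the lowest value for 14 of 43 members with 6 fetal values (Eef1a2, Eef1d, Eef1g, Eef2, Eif1a, Eif2b1, Eif3a, Eif3c, Eif4a1, Eif4ebp1, Eif4ebp3, Eif5, Eif5a and Eif5b), while it held the lowest value for 19.5% of all features. Embryo 4 held the lowest value for 1 member, Eif2s3x, and the highest for 3, against 9.12% and 8.33% of all features. Among adults, animal 5 held 11 highest and 12 lowest values of 44, against 24.9% and 30.1% of all features, and animal 6 held 3 highest and 8 lowest, against 18% and 15.4%. These counts describe single animals and were not tested.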
